A study of Mus musculus with 15 samples.

Results

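Cish, Socs1, Socs2, Socs3, Pim1, Pim2, Pim3 and Osm are the feedback inhibitors, kinases and ligand of cytokine signalling described here, measured in mouse spleens with acute promyelocytic leukaemia (APL), in which neutrophil precursors stop maturing as promyelocytes and accumulate. They were chosen by name: every probeset with one of these genes as its only annotated symbol was taken, and a gene's value was the median log2 intensity over its probesets. Of the 8 genes, 7 had such a probeset. Osm, which encodes oncostatin M, had none in the annotation used here and was not measured. The 7 measured genes were read by 53 of the 229581 probesets on the array and made up 7 of 16277 genes with a probeset of their own. Jak1 and Stat5a, a receptor-bound kinase and a transcription factor of the same pathway, were read by another 48 probesets and set beside them.

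The series held 15 arrays, all in 1 group: total RNA of spleen from Bl/6 Taconic mice with APL, on the Affymetrix Mouse Exon 1.0 ST array, which reads each gene through several short probesets. The labels give no age, no genotype, no transgene, no treatment and no normal spleen, so the data bear on how the genes varied between tumours and with which other genes. Whether each tumour is a separate animal is not stated, so a p-value here reflects only the variation among 15 arrays, which may in part be technical, and the number of arrays limits the precision. Markers of the primary granules, which promyelocytes make, were bright in every spleen: Mpo lay at 12.92 ± 0.27 and Ctsg at 12.20 ± 0.24 (log2 intensity, mean ± SD over 15 tumours, as for all errors below unless stated). A whole spleen holds other cells too, and in such a sample fewer cells of a type cannot be told apart from less RNA per cell. Tumor_9509 and tumor_9514 differed from the rest: across genes their arrays correlated with each other at 0.964 and with no other array above 0.949, so relations are also given without them. The tumour numbers have 2 digits in 5 tumours and 4 digits in 10, which may mark a batch; relations are given within the 10, and 5 tumours are too few for a value of their own.

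In the JAK-STAT pathway a cytokine brings its receptor chains together, the bound JAK kinases phosphorylate the receptor and the STAT proteins, and the STATs enter the nucleus and switch on target genes. Cish and the Socs genes are among those targets, and their SH2-domain proteins bind receptors or JAKs and damp the signal, which closes a feedback loop. The Pim genes are also induced by STATs; they encode serine/threonine kinases that have no regulatory domain, so that their activity follows the amount of protein, and that favour survival and growth of blood cells. Pim1 was first found as a site of retroviral insertion in mouse lymphomas.

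STAT dimers bind a palindrome, and where it lies near a gene's start it can be read in the sequence. The promoters of 3 inhibitors and of Pim1 are shown because they differ in this respect. They are from RefSeq (GRCm38.p6), which listed 6 of the 8 genes, and run from 250 bases before to 50 bases after the start. Capitals mark each match to TTCNNNGAA, the general STAT palindrome (GAS), or to the letters GAAA, any 2 bases and GAAA again, a repeat found in interferon response elements; both were searched on both strands.
Cish, chr9:107296409-107296708, + strand: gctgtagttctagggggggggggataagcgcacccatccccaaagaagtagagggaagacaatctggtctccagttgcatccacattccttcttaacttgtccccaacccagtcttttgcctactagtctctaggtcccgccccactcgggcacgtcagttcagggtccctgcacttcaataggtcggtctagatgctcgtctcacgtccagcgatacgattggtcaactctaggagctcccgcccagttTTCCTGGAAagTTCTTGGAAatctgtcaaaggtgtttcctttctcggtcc
Socs3, chr11:117969317-117969616, - strand: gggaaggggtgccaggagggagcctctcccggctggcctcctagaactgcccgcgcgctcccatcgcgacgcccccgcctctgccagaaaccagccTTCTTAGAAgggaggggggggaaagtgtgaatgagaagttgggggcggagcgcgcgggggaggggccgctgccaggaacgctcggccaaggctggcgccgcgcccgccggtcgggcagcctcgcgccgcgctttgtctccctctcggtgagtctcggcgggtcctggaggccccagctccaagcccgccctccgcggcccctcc
Socs1, chr16:10785487-10785786, - strand: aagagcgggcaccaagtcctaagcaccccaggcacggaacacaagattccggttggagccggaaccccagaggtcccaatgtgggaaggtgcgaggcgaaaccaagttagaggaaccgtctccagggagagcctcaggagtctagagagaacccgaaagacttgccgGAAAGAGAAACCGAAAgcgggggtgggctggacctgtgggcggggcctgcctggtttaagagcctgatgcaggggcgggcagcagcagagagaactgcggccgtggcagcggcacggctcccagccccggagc
Pim1, chr17:29490535-29490834, + strand: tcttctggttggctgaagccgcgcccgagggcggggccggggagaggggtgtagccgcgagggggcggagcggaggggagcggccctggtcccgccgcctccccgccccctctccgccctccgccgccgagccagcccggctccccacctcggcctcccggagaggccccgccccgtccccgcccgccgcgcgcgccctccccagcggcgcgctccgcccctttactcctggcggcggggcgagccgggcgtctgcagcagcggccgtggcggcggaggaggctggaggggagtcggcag

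Cish held 2 STAT palindromes, at bases 1 to 9 and 12 to 20 counted from its start, and Socs3 held 1, at bases -154 to -146. Such a palindrome was present in 8.3% of 32851 promoters of this length, and 2 or more in 0.457%. The Socs1 promoter had no STAT palindrome but 2 overlapping matches to the GAAA repeat, from base -83 to base -68; 1 or more such matches were present in 3.44% of promoters and 2 or more in 0.225%. Neither motif was present in the windows of Pim2 (chrX:7878056-7878355), Pim3 (chr15:88861944-88862243) or either listed start of Pim1. These matches describe the letters in each window and say nothing of whether a factor binds there.

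Among the 7 measured genes, Pim1 and Cish had the largest SDs between tumours, and Pim3, Socs3 and Socs1 had the smallest. Over all genes whose mean exceeded the detection limit of 6.41, which was the 40th percentile of gene means, the median SD was 0.29, and 10.8% had an SD above 0.5. Spread depends on brightness, so each gene's SD was also set against the SDs of about 488 genes of like brightness. Levels of different genes are not compared with each other, because each probe has its own response.

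**Figure D1:**
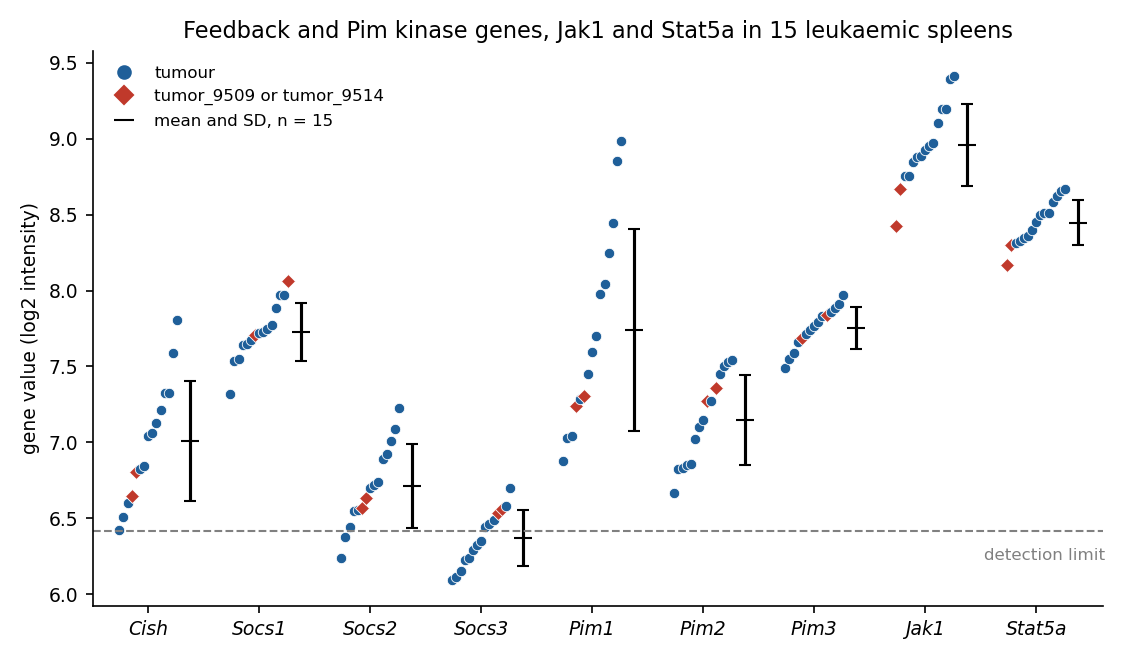
Log2 intensity (vertical axis) of the 7 measured genes and of Jak1 and Stat5a (horizontal axis) in the spleens of 15 APL tumours. Each point is 1 tumour, the bar is the mean and the dashed line is the detection limit of 6.41; Pim1 spreads over 2.11 log2 units and Pim3 over 0.47.

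Cish, the founding member of the inhibitor family and a known target of STAT5, lay at 7.01 ± 0.40. It ranged from 6.42 in tumor_9492 through a median of 7.04 to 7.80 in tumor_9520, a 2.61-fold range. Its SD was larger than that of 83.6% of genes of like brightness, whose median SD was 0.25. The tumours formed a continuum, with tumor_9520, tumor_9504, tumor_9508 and tumor_9500 at the high end and tumor_9492, tumor_9523, tumor_29 and tumor_9509 at the low end.

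The inhibitors Socs1, Socs2 and Socs3 varied less. Socs1, which blocks the JAK kinase domain directly, lay at 7.73 ± 0.19, from 7.32 in tumor_33 through a median of 7.72 to 8.06 in tumor_9514. Its SD exceeded that of only 12.5% of its peers. Socs2, known for damping growth hormone signalling, lay at 6.71 ± 0.28, from 6.24 in tumor_9508 through a median of 6.70 to 7.23 in tumor_9495. It was read by 1 probeset, so no second reading of it was at hand, and 2 tumours were below the detection limit. Socs3, which damps signalling by the IL-6 receptor chain gp130 and by the G-CSF receptor, lay at 6.37 ± 0.18, from 6.09 in tumor_9504 through a median of 6.35 to 6.70 in tumor_9500. Its mean was below the detection limit, as were 8 of the 15 tumours, so its differences between tumours are small changes close to background.

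Pim1 had the widest range of the 7 genes when gene values were medians over probesets; with means, its SD was 0.49 and that of Cish 0.51. As a median it lay at 7.74 ± 0.67, from 6.87 in tumor_9529 through a median of 7.60 to 8.99 in tumor_9500, a 4.32-fold range. Its SD was larger than that of 95.9% of genes of like brightness, whose median SD was 0.32. Tumor_9500 and tumor_31 (8.85) were highest, followed by tumor_9504 (8.45) and tumor_9520 (8.25). Pim2, the X-linked family member, lay at 7.15 ± 0.30, from 6.67 in tumor_33 through a median of 7.14 to 7.54 in tumor_9504, and its SD exceeded that of 64.8% of its peers. Pim3 lay at 7.75 ± 0.14, from 7.49 in tumor_9523 through a median of 7.77 to 7.97 in tumor_9520, a 1.39-fold range. Only 2.05% of its peers had a smaller SD, and their median SD was 0.32.

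Jak1 lay at 8.96 ± 0.27, with an SD above that of 18.0% of its peers. Stat5a lay at 8.45 ± 0.15, from 8.17 in tumor_9514 to 8.67 in tumor_33, a 1.41-fold range. Both were thus among the steadier genes of their brightness, while Cish and Pim1 were among the more variable.

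The separate probesets bear on how far these differences can be trusted. The probesets of a gene were ranked by number, and the mean of the odd-ranked ones was correlated across tumours with the mean of the even-ranked ones; the median of this odd-even r over 9452 genes was 0.78. It was 0.873 for Cish, 0.869 for Pim1 and Stat5a and 0.911 for Jak1, but 0.666 for Pim3, 0.416 for Socs1, 0.398 for Socs3 and 0.365 for Pim2. The 2 sets of probesets thus ordered the tumours alike for Cish and Pim1, and only weakly so for Socs1, Socs3 and Pim2. With the rest of their own gene, 4 of 6 Cish probesets and 5 of 8 Pim1 probesets correlated above 0.5. The counts were 3 of 5 for Socs1, 4 of 9 for Pim2, 4 of 16 for Pim3 and 0 of 8 for Socs3. Between single probesets the median r was 0.353 for Cish, 0.286 for Pim1, 0.277 for Pim2, 0.192 for Socs3, 0.145 for Socs1 and 0.136 for Pim3. By that count Pim1 was close to Socs1, and by that median it was close to Pim2.

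Single probesets spread further than the gene medians. Cish probeset 4783372 ranged from 7.43 to 10.55 (8.65 ± 1.09), 5527514 from 6.18 to 8.46 (7.07 ± 0.61) and 4467212 from 6.64 to 8.36 (7.30 ± 0.56). Their r with the median of the other Cish probesets was 0.774, 0.717 and 0.808. Probeset 5296478 hardly moved, at 7.04 ± 0.26. Among Pim1 probesets, 5404886 ranged from 6.10 to 9.61 (7.73 ± 1.10), 5349737 from 6.96 to 10.49 (8.54 ± 1.02) and 5420206 from 7.82 to 10.02 (8.82 ± 0.70). Probeset 5352810 stayed at 10.27 ± 0.30 and had an r of -0.137 with the median of the others. Pim1 probeset 4617094 ranged from 5.94 to 7.83 (7.14 ± 0.49), with an r of -0.459 to the median of the others. Which exons these probesets read was not used here.

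**Figure D2:**
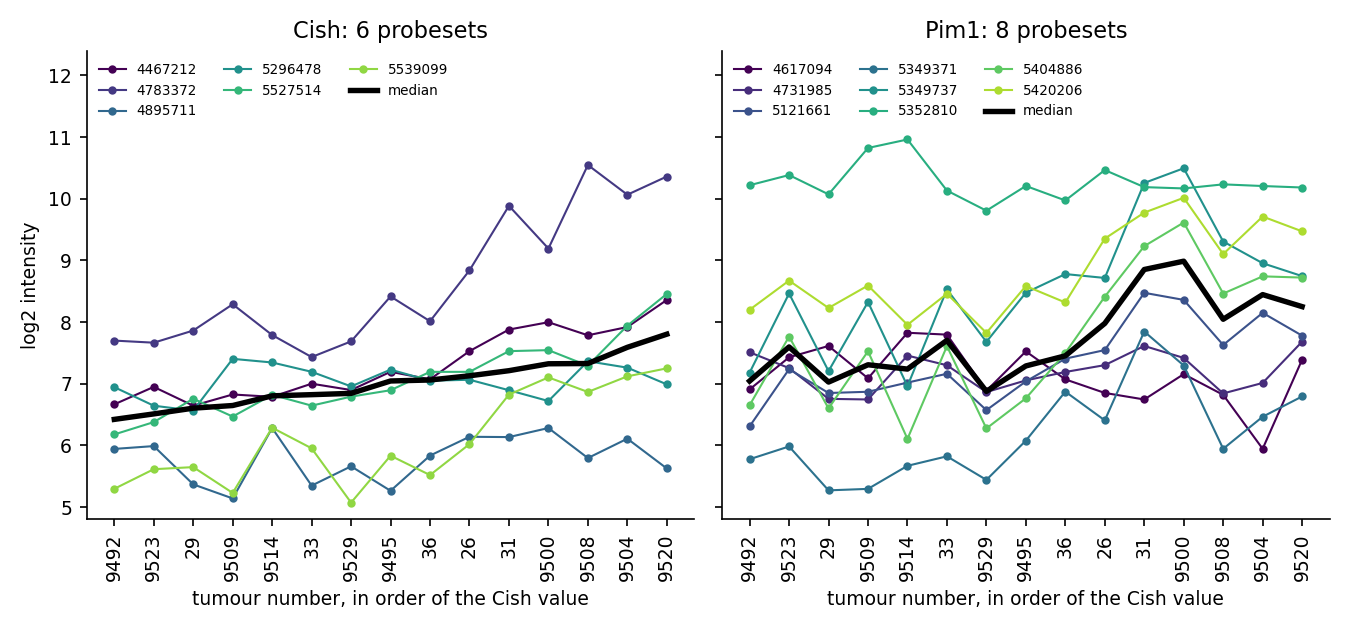
Log2 intensity (vertical axis) of each of the 6 Cish probesets and 8 Pim1 probesets (1 line each) in 15 tumours, ordered along the horizontal axis by their Cish level from low to high. The 4 Cish and 5 Pim1 probesets with an SD above 0.5 climb towards the right, the Cish ones in part because their own median sets the order. Flat lines such as Cish 5296478 and Pim1 5352810 do not follow. Nor does Pim1 4617094, which has an r of -0.459 with the median of the other Pim1 probesets.

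Co-variation was tested as Pearson's r across the 15 tumours, with a two-sided permutation test of 100000 resamples. Each of the 9 genes was tested against all 9767 genes tested, and Benjamini-Hochberg adjustment ran over all 87858 tests. At an adjusted p of 0.05, 0 of the 36 pairs among the 9 genes passed, as did 0 of all 87858 tests (0.0%), by r and by Spearman's rho. Without adjustment 4 of the 36 pairs had a p under 0.05 by r, and 3 did by rho. In the whole family 8943 tests did so (10.2%), so the share among the pairs was near the background. By gene, that unadjusted share was 7.67% of all genes tested for Cish, 9.29% for Socs1, 2.36% for Socs2, 6.46% for Socs3, 6.83% for Pim1, 3.44% for Pim2, 6.37% for Pim3, 30.0% for Jak1 and 19.2% for Stat5a. The smallest adjusted p in the family was 0.0628; with this number of resamples a p cannot be below 1e-05, 14 tests reached that limit, and 18 would have been needed for any to pass. With 10000000 resamples for the 576 tests with p below 0.001, the smallest adjusted p was 0.0544 and again 0 tests passed.

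The feedback inhibitors and Pim kinases showed little co-variation as a group. The 21 pairs among them had a median r of 0.114, and the other settings tried gave -0.013 to 0.247, the highest being 0.247 with dim probesets left out, 0.24 after quantile normalization and 0.201 with means over probesets. Single pairs lay between -0.502 for Socs1 with Socs2 and 0.73 for Cish with Pim1 as reported. Of these pairs 14 were positive and 7 negative. The mean r was 0.105, against 0.079 over all pairs of tested genes. Weak readings also limit how high an r can be. The odd-even r was 0.416 for Socs1, 0.398 for Socs3 and 0.365 for Pim2, and Socs2 had 1 probeset.

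**Figure D3:**
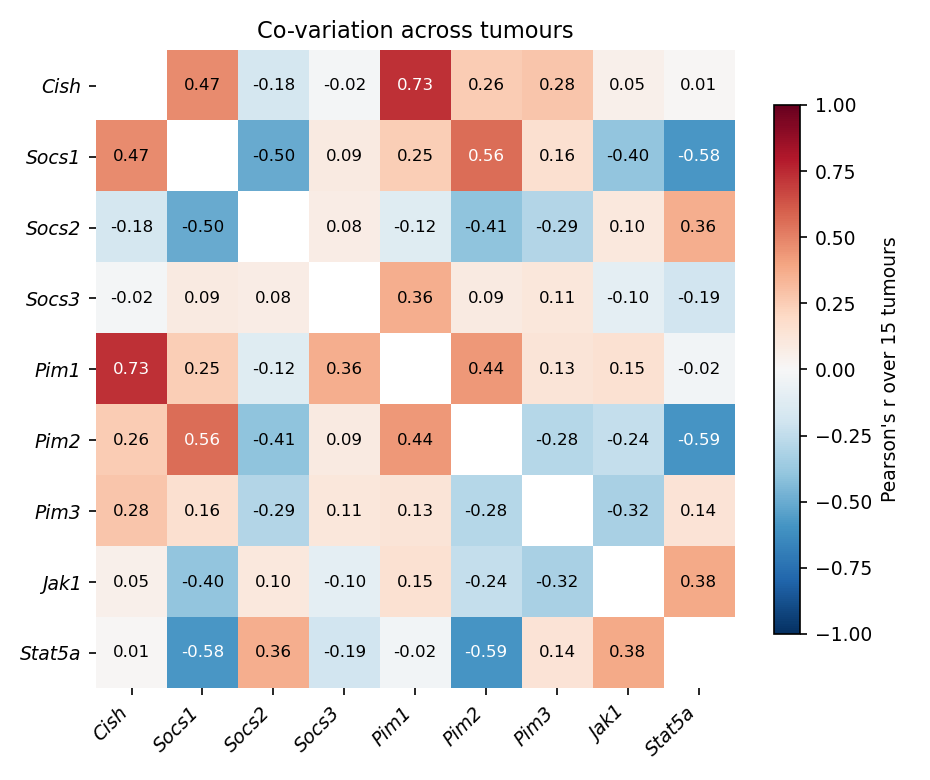
Pearson's r across 15 tumours for each of the 36 pairs among Cish, Socs1, Socs2, Socs3, Pim1, Pim2, Pim3, Jak1 and Stat5a; both axes list the genes and colour gives r. Cish with Pim1 (0.73) is the strongest positive pair, and the most negative are Stat5a with Pim2 (-0.589) and with Socs1 (-0.583).

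Cish and Pim1 were the closest pair. Their r was 0.73 (permutation p = 0.00215, adjusted p = 0.189) and their rho 0.757 (p = 0.00157, adjusted p = 0.254), so the relation did not pass the threshold over the whole family. It was 0.729 without tumor_9520 and tumor_9492, the tumours farthest from the Cish median, 0.71 without the arrays that stood apart and 0.751 within the 10 tumours with 4-digit numbers. In 11 of 15 tumours both genes lay on the same side of their medians. The genes are on chromosomes 9 and 17. Their probesets told a mixed story: of 48 combinations of a Cish and a Pim1 probeset 33 had a positive r and 22 exceeded 0.5, with a median of 0.435 and a range from -0.541 to 0.895.

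Socs1 and Pim2 had an r of 0.556 (permutation p = 0.0297, adjusted p = 0.418) and a rho of 0.518 (p = 0.0502, adjusted p = 0.559). The r was 0.365 without tumor_33 and tumor_9514, 0.542 without the arrays that stood apart and 0.28 within the 4-digit numbers, which leave out tumor_33. It was 0.401 without tumor_33 alone, 0.537 without tumor_9514 alone and 0.73 without tumor_9520 alone, so it depended on single tumours. Cish with Socs1 gave 0.472 (permutation p = 0.0751, adjusted p = 0.552) and Pim1 with Pim2 0.437 (permutation p = 0.104, adjusted p = 0.604). When a gene's value was the mean and not the median of its probesets, the r of Pim1 with Pim2 was 0.837, and this was the 1 pair that passed (adjusted p = 0.0314). Socs2 and Socs3 had no pair with an unadjusted p under 0.05.

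No relation of Jak1 level with the feedback and Pim genes passed the test. Its r with the 7 genes had a median of -0.098 and ran from -0.397 with Socs1 to 0.153 with Pim1, and it was 0.05 with Cish; none of the 7 had an unadjusted permutation p under 0.05, against 30.0% of all genes tested with Jak1. Within the 4-digit numbers the r of Jak1 was -0.705 with Socs1 and 0.529 with Socs2, for which all 15 tumours gave -0.397 and 0.105. For Stat5a level the r was 0.009 with Cish and -0.024 with Pim1, with permutation p of 0.974 and 0.933. The most negative values were with Pim2 (r = -0.589, permutation p = 0.0219, adjusted p = 0.377, rho = -0.546 with p = 0.0368) and with Socs1 (r = -0.583, permutation p = 0.0217, adjusted p = 0.377, rho = -0.536 with p = 0.0425). With Pim2 the r was -0.48 without tumor_9514 and tumor_33, -0.579 without the arrays that stood apart, -0.47 within the 4-digit numbers and -0.305 after quantile normalization. With Socs1 the same 4 values were -0.231, -0.474, -0.472 and -0.129. With means over probesets the r was -0.137 with Pim2 and -0.624 with Socs1, so which of these values moved more depended on the setting. With Stat5a, 19.2% of all genes tested had an unadjusted p under 0.05, against 2 of these 7. Jak1 with Stat5a gave 0.377 (permutation p = 0.165, adjusted p = 0.678), -0.031 without the arrays that stood apart and 0.757 within the 4-digit numbers.

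The genes whose pattern was most like each measured gene were ranked by r among tested genes with at least 3 probesets; none passed the adjusted threshold. Serpina3g, a serine protease inhibitor of a multigene family whose probes may read relatives, followed Cish most closely. It ranged from 5.97 in tumor_9492 to 11.76 in tumor_9508, and tumor_9492 was also the lowest tumour for Cish. Their r was 0.919 (permutation p = 1e-05, the smallest that 100000 resamples can give, adjusted p = 0.0628) and their rho 0.957 (p = 1e-05). The r was 0.889 without tumor_9520 and tumor_9492, 0.914 without the arrays that stood apart and 0.937 within the 4-digit numbers. With 10000000 resamples its p was 2e-06 and its adjusted p 0.0544.

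**Figure D4:**
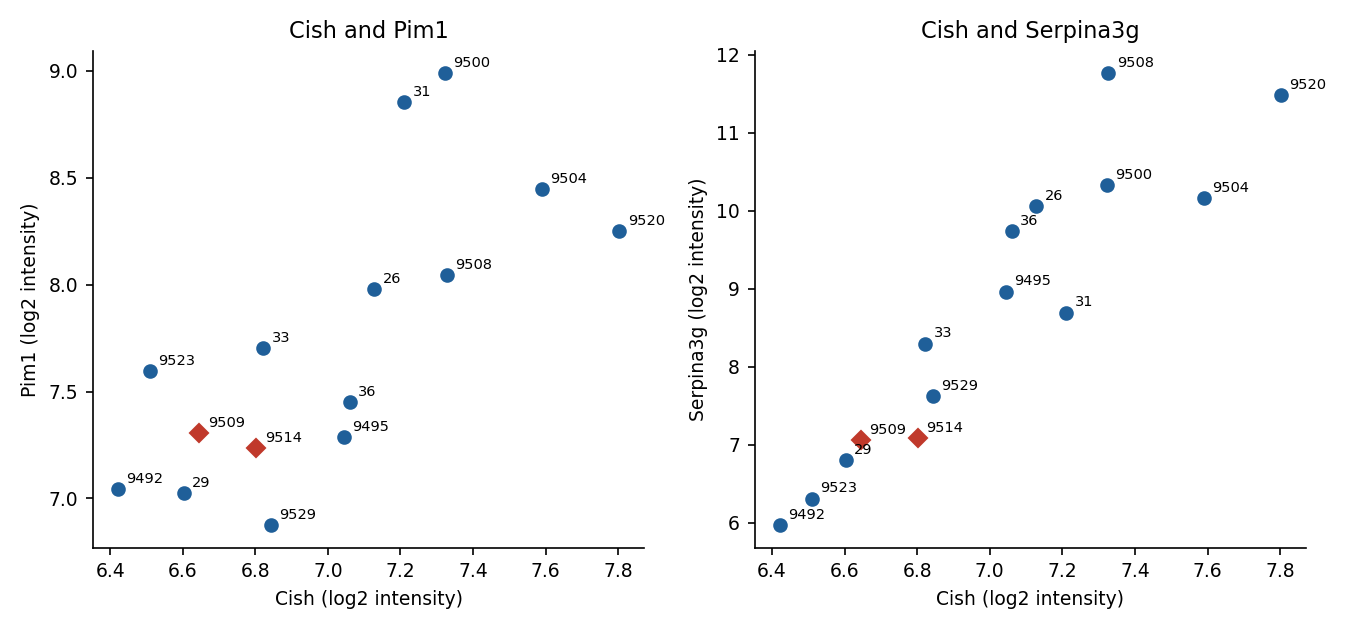
Log2 intensity of Pim1 (left panel, vertical axis) and of Serpina3g (right panel, vertical axis) against that of Cish (horizontal axes); each point is 1 of 15 tumours. Both climb with Cish, with r of 0.73 for Pim1 and 0.919 for Serpina3g.

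Next to Cish came Mtch1, a mitochondrial carrier homologue (r = 0.886), and Ier3, an immediate early gene that favours survival (r = 0.849), with adjusted p of 0.0703 and 0.0799. Ier3 was also close to Pim1 (r = 0.79, adjusted p = 0.132), and at 0.752 without tumor_9500 and tumor_31. Pim1's own nearest genes were Ndst1, an enzyme of heparan sulphate synthesis (r = 0.858), Rgs14, a regulator of G-protein signalling (0.846), and Mapk13, a p38 kinase (0.846). Without tumor_9500 and tumor_31, the tumours with the most Pim1, the r of these 3 were 0.775, 0.69 and 0.65.

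For Socs1 the nearest were Mef2b (0.866), F11r (0.823) and Oxld1 (0.798), and for Socs2 Slc6a7 (0.806), Peli3 (0.788) and Pnpla3 (0.779). For Socs3 they were Zmpste24 (0.891), Unc13d (0.816) and Il1f9 (0.801), an IL-1 family cytokine gene. Pim2 was nearest to Sertad1 (0.788), Spata2 (0.759) and Fam234b (0.726). Pim3, on chromosome 15, was nearest to Pycrl (0.887), which lies on the same chromosome, and to Lmx1b (0.849) and Cybrd1 (0.832), which lie on chromosome 2. The adjusted p of these 15 relations lay between 0.0703 for Mef2b, Zmpste24 and Pycrl and 0.198 for Fam234b.

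Other genes of the pathway were counted from lists, with 0 passing the adjusted threshold for any of the 7 genes; the counts that follow are at an unadjusted p under 0.05. Among 10 JAK and STAT genes, 1 had such a p with Cish and 1 with Pim1, both positive. Over all genes tested 4.83% were positive with Cish at that level and 5.73% with Pim1. Negative relations were 2 of 10 for Socs1 and 1 of 10 each for Socs3, Pim2 and Pim3. Over all genes tested, the share in either direction was 9.29% for Socs1, 6.46% for Socs3, 3.44% for Pim2 and 6.37% for Pim3. The gene for Cish was Jak2, the kinase of the IL-3, GM-CSF and erythropoietin receptors. Jak2 ran from 5.99 in tumor_9509 to 7.84 in tumor_9504, with an r to Cish of 0.697 (permutation p = 0.0038, adjusted p = 0.223), a rho of 0.664 (p = 0.00865), 0.68 without tumor_9520 and tumor_9492, 0.693 without the arrays that stood apart and 0.816 within the 4-digit numbers. The gene for Pim1 was Stat2 (0.595). The negative ones were Socs1 with Stat3 (-0.584) and, as given above, Stat5a, Pim2 with Stat5a, and Stat4 with Socs3 (-0.531) and Pim3 (-0.521). Stat5b (8.28 ± 0.36) and Stat3 (8.56 ± 0.53) had r of 0.132 and 0.122 with Cish and 0.223 and 0.309 with Pim1. The median r over the list was 0.086 with Cish and 0.264 with Pim1, against 0.059 and 0.107 over all genes.

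Of 14 tested receptors that signal through JAKs, 3 had a p under 0.05 with Cish and 2 with Pim1, all positive. Over all genes tested, 4.83% were positive with Cish at that level and 5.73% with Pim1. The medians over the list were 0.074 and 0.236, against 0.059 and 0.107 over all genes. Negative relations at that level were Socs1 with Il2rg (-0.686) and Csf3r (-0.577), Socs3 with Ifngr1 (-0.578) and Pim3 with Il2rg (-0.574), while Socs2 and Pim2 had none. For these, the share of all genes tested in either direction was 9.29% for Socs1, 6.46% for Socs3 and 6.37% for Pim3. It was 2.36% for Socs2 and 3.44% for Pim2. Csf2rb2, a second form of the common beta chain that serves IL-3 in mice, had an r of 0.797 with Pim1 (permutation p = 0.00047, adjusted p = 0.129) and a rho of 0.829 (p = 0.00027). It was 0.817 without tumor_9500 and tumor_31, 0.795 without the arrays that stood apart and 0.87 within the 4-digit numbers. With Cish its r was 0.618. Csf2rb, the near-identical beta chain gene, gave 0.477 with Pim1 and 0.362 with Cish; probes may read both genes, so the difference between them is uncertain. Il4ra, the IL-4 receptor chain, had an r of 0.79 with Pim1 (permutation p = 0.00045, adjusted p = 0.128) and 0.636 with Cish, and the first was 0.569 without tumor_9500 and tumor_31. Il2rb (0.557) was the remaining receptor with Cish. For Osm, whose own level was not measured, both receptor genes were below the detection limit on average: Osmr lay at 4.54 ± 0.20 and Il6st, which encodes gp130, at 5.71 ± 0.42. Il6st exceeded the limit in tumor_36, at 7.04.

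Other inhibitors of the pathway gave few such relations. For the counts in this paragraph, the share of all genes tested with such a p in either direction was 7.67% for Cish, 9.29% for Socs1 and 2.36% for Socs2. It was 6.46% for Socs3, 6.83% for Pim1, 3.44% for Pim2 and 6.37% for Pim3. Of 15 tested, Ptpn1, a phosphatase that acts on JAKs, had r of 0.543 with Cish and 0.611 with Pim1, and Pias3, an inhibitor of STAT3, 0.68 with Pim1. With Socs1 the 1 gene was Ptpn2 (0.519) and with Socs2 it was Socs6 (-0.575); Socs3, Pim2 and Pim3 had none. Among 14 tested genes known as other STAT targets, 1 was positive and 3 were negative with Pim3 at that level, and 2 were positive with Socs3. With Cish 1 was negative and with Pim1 1 was positive, while Socs1, Socs2 and Pim2 had none. Mcl1, a survival factor of the Bcl2 family, had an r of 0.686 with Pim1, which was 0.237 without tumor_9500 and tumor_31. Bcl2 had -0.568 with Cish and -0.691 with Pim3. Ccnd2 (8.29 ± 0.71) had r of -0.281 with Cish, -0.32 with Pim1 and -0.655 with Pim3. Bcl2l1 (7.01 ± 0.21) had 0.414 with Cish, 0.311 with Pim1 and 0.558 with Pim3, and Myc (10.82 ± 0.69) had 0.322 with Cish and 0.264 with Pim1. Of 14 immediate early genes, which cells switch on within minutes of a stimulus, Ier3 was the 1 with an unadjusted p under 0.05 for Cish and for Pim1. Socs3 had Junb (0.637) and Zfp36 (0.582), Socs1 had Egr2 (-0.661), and Socs2, Pim2 and Pim3 had none.

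The ligand genes were dim on average, but Il3 and Csf2 were far above their own medians in a few tumours. Of 12 measured cytokine genes that act through JAKs, 0 exceeded the detection limit on average and 6 exceeded it in at least 1 tumour. Il11 stayed close to the limit, from 5.95 to 6.77 with 9 tumours above it, and so did Ifng, from 6.01 to 6.65 with 6 above it; Il4 and Il5 exceeded it in 1 tumour each. Il3, which encodes a growth factor for early myeloid cells, was at 10.36 in tumor_9504, 7.92 in tumor_26 and 7.44 in tumor_9508. Tumor_9520 followed at 6.03, below the limit, and the other 11 tumours lay from 4.37 to 4.98; the median was 4.74. Tumor_9504 was the highest of the 15 in 6 of 6 Il3 probesets. Its excess of 5.62 over the gene's median was reached by 2 of 16277 genes, Il3 included.

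Csf2, which encodes GM-CSF, was high in different tumours. It was at 8.43 in tumor_9520 and 8.12 in tumor_9495, and from 3.73 to 5.42 elsewhere, around a median of 4.57. Tumor_9520 was the highest in 5 of 5 Csf2 probesets, and 13 of 16277 genes had an excess over their median at least as large as its 3.86. No correlation was computed for these genes, since 3 and 2 tumours carried the signal.

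Set beside them, Cish had rank 1 of 15 in tumor_9520, rank 2 in tumor_9504, rank 3 in tumor_9508, rank 6 in tumor_26 and rank 8 in tumor_9495, where rank 1 is the highest. Pim1 had ranks 4, 3, 5, 6 and 11 in the same tumours. The tumours with the most Pim1, tumor_9500 and tumor_31, had Il3 at 4.74 and 4.57 and Csf2 at 4.56 and 4.21, at or below each gene's median. High Cish or Pim1 was seen both in tumours with high Il3 or Csf2 and in tumours where both were low. Other ligands were not set beside these ranks, and Osm was not measured. Il11 was highest in tumor_9500, at 6.77, an excess of 0.32 over its median that 12446 of 16277 genes reached. Tumor_9500 was the highest tumour in 0 of 5 Il11 probesets. Whether a ligand has a part in these levels was not tested. Il3 and Csf2 are neighbours in the mouse genome, but no tumour exceeded the limit in both.

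**Figure D5:**
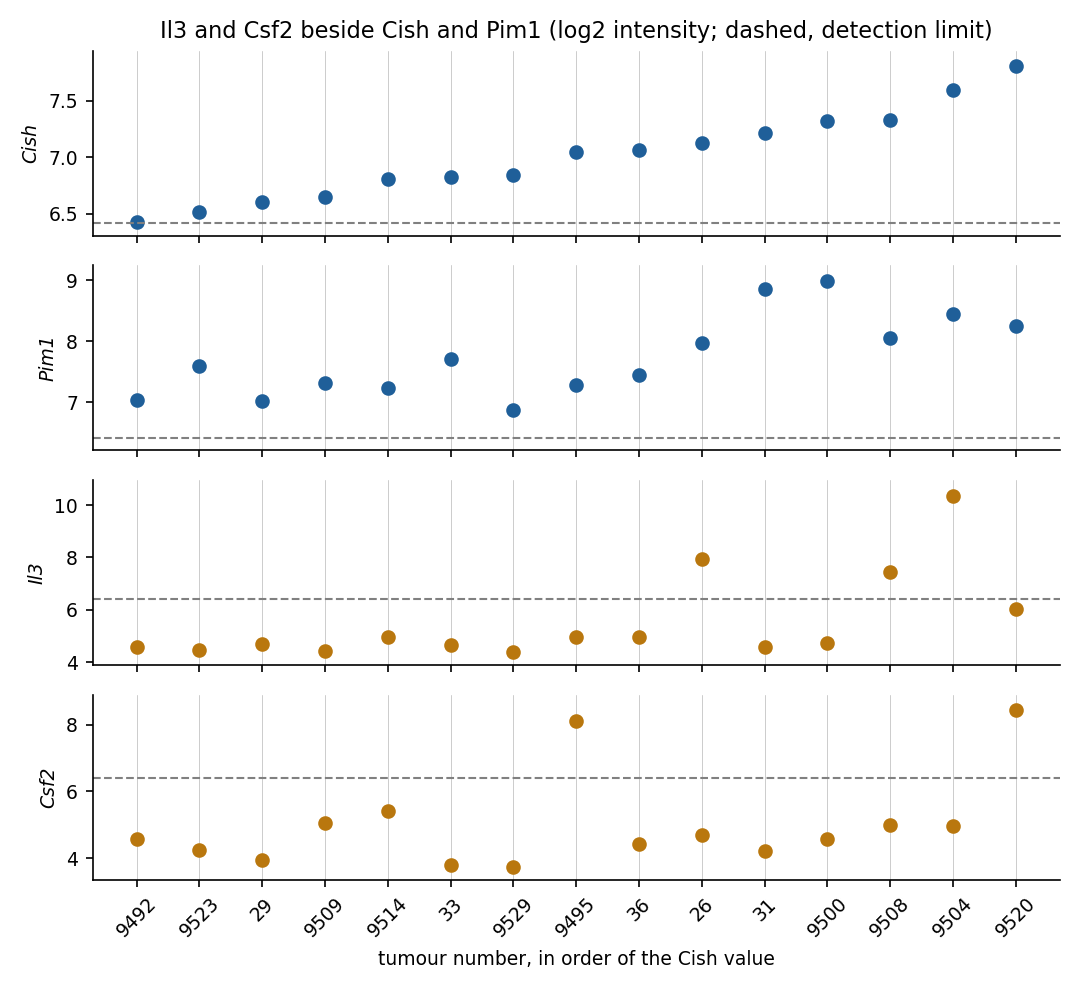
Log2 intensity (vertical axes) of Cish, Pim1, Il3 and Csf2 in 15 tumours (horizontal axis), ordered by Cish from low to high, with the detection limit of 6.41 dashed. Il3 stands out in tumor_9504, tumor_26 and tumor_9508 and Csf2 in tumor_9520 and tumor_9495. Tumor_9500 and tumor_31 have the most Pim1, with neither Il3 nor Csf2 above the limit.

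Markers of other cells moved with some of these genes, and their part in the results was not tested. Socs3 correlated positively with genes of mature neutrophils, though 0 of them passed the adjusted threshold. Of 7 tested markers 6 had an unadjusted permutation p under 0.05, all positive, and Csf3r, at 0.11, did not. The median r over the list was 0.733, against -0.085 over all genes, and 3.04% of all genes were positive at that level. Socs3 itself was close to background: its mean and 8 of 15 tumours were below the detection limit, and its odd-even r was 0.398. Il1b gave 0.769 (permutation p = 0.00027, adjusted p = 0.119, rho = 0.786), Mmp9 0.765 (permutation p = 0.00079, adjusted p = 0.146, rho = 0.779) and Cxcr2 0.76. Without tumor_9500 and tumor_9504 Il1b was at 0.659 and Mmp9 at 0.643, without the arrays that stood apart they were at 0.793 and 0.742, and within the 4-digit numbers at 0.771 and 0.808. Of 8 secondary granule genes 4 had such a p, with Lcn2 at 0.758. All 8 mature neutrophil markers were measured and 7 exceeded the detection limit; their summed intensity lay between 2090 in tumor_9508 and 15800 in tumor_31, around a median of 7870. Socs3 had rank 2 of 15 in tumor_31 and rank 12 in tumor_9508.

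At the same unadjusted level Cish correlated positively with Thy1 and Cd3e, 2 of 7 tested T cell genes (r = 0.656 and 0.588, adjusted p = 0.285 and 0.373), and negatively with the haemoglobin gene Hbb-b1 and the haem enzyme gene Alas2, 2 of 5 tested erythroid genes (r = -0.696 and -0.577, adjusted p = 0.224 and 0.394). The median r with Cish was 0.148 over the T cell list, where Cd3d was at -0.09, and -0.424 over the erythroid list. Csf1r, a monocyte gene, gave 0.707 with Cish (adjusted p = 0.206), Adgre1 of red pulp macrophages 0.624, Top2a, a proliferation gene, -0.56, Ppbp of megakaryocytes -0.537 and the progenitor gene Cd34 -0.523, each the 1 gene of its list. The medians over these lists, in the same order, were 0.131, -0.018, -0.429, -0.165 and -0.332. Ccr2 of the monocyte list was at -0.412 and C1qb of the macrophage list at -0.265. Over all genes, 4.83% were positive and 2.84% negative with Cish at that level. Within the 4-digit numbers Thy1 was at 0.93 and Hbb-b1 at -0.82. The summed intensity of 8 measured T cell markers lay between 767 in tumor_9523 and 2760 in tumor_36, and that of 6 measured erythroid markers between 1370 in tumor_9500 and 8020 in tumor_9509. Thy1 and Hbb-b1, the brightest of these lists, were lowest and highest in the same tumours as the sums. The sums are therefore not readings apart from Thy1 and Hbb-b1. Pim1 was also negative with Hbb-b1 (r = -0.614, adjusted p = 0.337), 1 of 5 erythroid genes, while 1.1% of all genes were negative with Pim1. Of 7 tested mature neutrophil markers 0 had such a p with Cish and 1, Il1b (0.527), with Pim1. Epx, an eosinophil gene, gave 0.699 with Pim1 (adjusted p = 0.235), where the median over its list was 0.341 and Hdc was at -0.007. Of 5 tested primary granule genes, Prtn3 was the 1 with Cish (0.682) and the 1 with Pim1 (0.677), while the medians over the list were 0.034 and -0.091 and Ctsg was at -0.196 and -0.32. Socs1 was negative at that level with 2 of 4 tested stem and progenitor genes, Kit (-0.619) and Myb (-0.657). It was also negative with 2 of 5 proliferation genes, Top2a (-0.62) and Mcm6 (-0.532). Their adjusted p lay between 0.283 and 0.461, and 9.29% of all genes had such a p with Socs1 in either direction. Gata2 of the progenitor list was at -0.113 and Birc5 of the proliferation list at 0.004. Negative genes at that level were spread over other lists too. They were 2 of 5 megakaryocyte, 2 of 6 red pulp macrophage, 1 of 7 mature neutrophil and 1 of 5 erythroid genes. The basophil, mast cell and eosinophil list and the endothelium and stroma list had 1 each, and the latter also had 1 positive gene.

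The level of a whole chromosome was also set beside each gene. The median deviation of the 294 genes of chromosome 16, which carries Socs1, reached 0.298 in tumor_9492, where Socs1 itself was 0.02 above its median. On chromosome 15, which carries Pim3, the median lay between -0.142 in tumor_36 and 0.135 in tumor_26, where Pim3 deviated by -0.03 and 0.02. On chromosome 9, which carries Cish, it stayed between -0.07 and 0.143, and on chromosome 17, which carries Pim1, between -0.121 and 0.081. Whether the level of a chromosome has a part in the level of these genes was not tested.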

How the data were processed

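The authors deposited linear intensities, 1 for each probeset on each array, between 2.38 and 19380.5; RMA and the build mm9 are named without versions in the submitters' processing notes. RMA removes background, brings arrays to a common scale and combines probes, so differences of dim probesets can be compressed. Array medians lay between 108 and 129, and no 2 arrays were identical. Per-sample depth has no meaning on arrays; their number, 15, limits precision.

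Intensities were log2 transformed here. Only the 208397 of 229581 probesets with 1 annotated symbol entered; 14132 of the 16299 symbols matched the RefSeq table, 2124 were updated and 43 kept. Gene values were medians over probesets. Genes tested were 9766 with means above the 40th percentile (6.41) plus Socs3. Since Osm had no probeset, 36 pairs were tested, and those with Osm were left out. Tests were two-sided permutation tests of 100000 resamples with Benjamini-Hochberg adjustment over 87858 tests.

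The genes and lists were chosen with earlier results of these data known. Named were the 9 genes, pairs with an unadjusted p under 0.05, the 3 genes with the highest r per gene, pathway genes that passed, and Stat5b, Stat3, Jak2, Bcl2l1, Ccnd2, Mcl1, Myc, Osmr and Il6st; other genes were chosen after their values were seen. Alternatives changed the probeset summary, the filters, the normalization, the coefficient and the tumours. The correlation step was tested on simulated data. Software was Python 3.11.15, numpy 2.4.6, pandas 2.3.3 and matplotlib 3.10.9.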

Additional observations from a re-analysis of the deposited data

How the results depend on the processing

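The count of pairs past the threshold was 0 in the reported analysis and under every alternative run, other than 1 (Pim1 with Pim2) when gene values were means over probesets; leaving out single tumours gave 0 to 0. Over all tests the count was 0 as reported, 588 with means over probesets and 47 among genes above the 60th percentile of gene means. Of the 588, 280 were with Jak1, 236 with Stat5a, 20 with Socs1, 19 with Pim1, 15 with Pim3, 10 with Cish, 9 with Pim2 and 0 each with Socs2 and Socs3; the cause was not tested. Over 26 alternatives, the r of Cish with Pim1 stayed between 0.699 and 0.786, that of Socs1 with Pim2 between 0.248 and 0.73, that of Stat5a with Pim2 between -0.683 and -0.137 and that of Stat5a with Socs1 between -0.789 and -0.129; no sign turned. The median r over the 21 pairs of members was 0.114 as reported; it ran from -0.013 to 0.189 as single tumours were left out and reached 0.201 with means over probesets, 0.24 after quantile normalization and 0.247 with dim probesets left out. The SD of Pim1 was 0.49 and that of Cish 0.51 with means over probesets. No paired analysis was possible because the labels give 1 group. Dim genes such as Socs3 and a gene with 1 probeset, Socs2, are limited by signal over background. The tests with 10000000 resamples were chosen after the data were seen.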

Other observations

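The genes with the most negative r to each measured gene were chosen after their values were seen, and none passed the adjusted threshold. The most negative with Cish was Postn, which encodes the matrix protein periostin, with an r of -0.86 (permutation p = 8e-05, adjusted p = 0.0808) and a rho of -0.90. It was -0.82 without tumor_9520 and tumor_9492, -0.872 without the arrays that stood apart and -0.919 within the 4-digit numbers. Postn lay at 4.32 in tumor_9520, the tumour with the most Cish, and between 10.26 and 10.83 in tumor_9523, tumor_9492, tumor_9509 and tumor_29, the tumours with the least Cish. Among tested genes with at least 3 probesets, Anks6 (r = -0.831, adjusted p = 0.1) came next for Cish. Mad2l1, a mitotic checkpoint gene, followed (r = -0.807, adjusted p = 0.124). The most negative with Pim1 were Stil, a centriole gene (r = -0.776, adjusted p = 0.142), Gapdhs (r = -0.766) and Ppia (r = -0.759).

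Socs1 was most negative with Usp15, a deubiquitinating enzyme gene, with an r of -0.931 (permutation p = 1e-05, adjusted p = 0.0628) and a rho of -0.839. It was -0.862 without tumor_33 and tumor_9514, -0.913 without the arrays that stood apart and -0.88 within the 4-digit numbers, but -0.477 after quantile normalization. The same normalization moved Socs1 with Hdac2, a histone deacetylase gene, to -0.485, against -0.819 as reported, and Pim3 with Znrf2, a ubiquitin ligase gene, to -0.159, against -0.806. For Cish with Postn it gave -0.872 and for Cish with Serpina3g 0.908, so those values moved little.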
